A study of Mus musculus with 20 samples.

Results

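The HOX cluster genes encode homeodomain transcription factors that lie side by side in 4 chromosomal clusters, Hoxa, Hoxb, Hoxc and Hoxd. Members were chosen by symbol, as every gene named Hox followed by a cluster letter and a number in the probe annotation, with 1 probe per gene. This gave 33 members among the 19505 genes measured: 8 of Hoxa, 9 of Hoxb, 9 of Hoxc and 7 of Hoxd. Along each cluster low numbers are expressed towards the head of the embryo and high numbers towards the tail, and many adult mesenchymal cells keep part of this positional code. Fat depots are known to differ in it, and Hoxc8, Hoxc9 and Hoxc10 are widely read as marks of white as opposed to brown fat cells. HOX proteins bind DNA together with the TALE homeodomain cofactors of the Pbx, Meis and Pknox families. Polycomb complexes keep silent clusters closed, trithorax complexes keep active ones open, and retinoic acid opens clusters from the low-numbered end.

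Total RNA was measured on 20 arrays in 4 groups of 5. Wild-type and Olfm2 knockout samples were taken from adipose depots that the labels call sc and g without spelling the letters out. Olfm2 encodes the secreted glycoprotein olfactomedin 2, and the study concerns what its absence does to adipocytes. Per the labels, each group held adipocytes derived from mouse adipose tissue and differentiated in culture. The labels do not give the allele, whether the deletion is limited to a cell type, the strain, age or sex, the number of animals, or whether the cultures of a group were separate. The p-values therefore measure the spread between these samples, which may be technical.

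The series' own design note names PKP2 rather than OLFM2 for the sc arrays, but the sample labels name Olfm2 knockouts throughout and were followed. The arrays matched those labels. Olfm2 was lower on every knockout array than on every wild-type array of the same depot, at 3.22 ± 0.38 against 4.88 ± 0.42 in sc and 3.54 ± 0.15 against 4.34 ± 0.23 in g (log2 signal, SD, n = 5 each). Each of these means lay under the 95th percentile of the negative control probes (7.24) and that of the olfactory receptor genes (4.98). The wild-type g mean was also under the median negative control probe (4.45 to 4.84), so the Olfm2 signal was low even in wild type. Tbx15 and Shox2, transcription factors of subcutaneous fat, differed by -2.93 and -2.77 between wild-type g and wild-type sc, and Wt1 and Tcf21, known from gonadal and other visceral fat, were 1.73 and 1.92 higher (log2 differences, groups not overlapping). The mean of 16 of 17 listed mature adipocyte markers was 10.6 to 11.5 on the arrays. Transcripts of other cell types were present too, as the plot of marker means shows. The label of adipocytes differentiated in culture does not account for them, and their source was not tested. The HOX signals can therefore not be assigned to adipocytes alone. Arrays with a mean above 7 numbered 8 for 16 hepatocyte markers (2 of knockout sc, 4 of knockout g and 2 of wild-type g), 3 for 11 lymphocyte markers and 4 for 12 skeletal muscle markers (all sc). The mean of 13 of 14 macrophage markers was 8.43 to 8.77 in wild-type sc, 8.15 to 8.62 in knockout sc, 9.68 to 10.2 in wild-type g and 8.87 to 9.49 in knockout g. That of 9 of 10 mesothelial markers was 4.94 to 5.26 on the sc arrays and 6.12 to 7.95 on the g arrays. The mean of 8 of 10 epididymis and sperm duct markers was 4.05 to 5.05, beside a median negative control probe of 4.45 to 4.84.

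**Figure D1:**
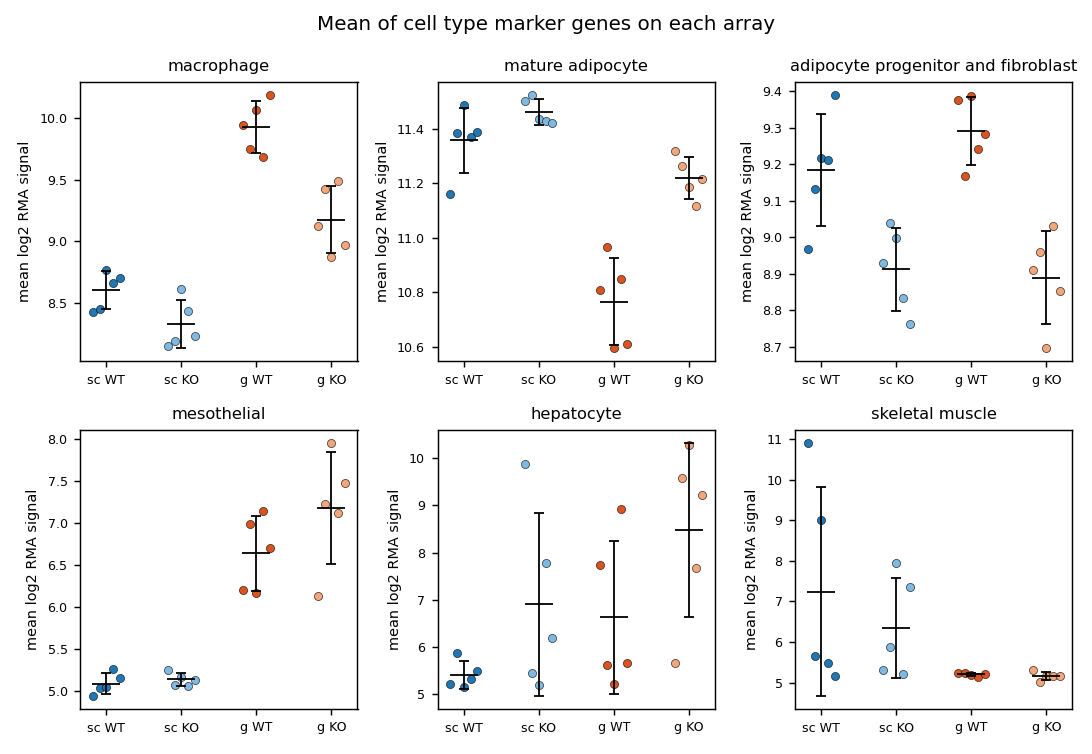
Mean log2 RMA signal of the listed marker genes of 6 cell types on each array, with 1 point per array and bars for the mean and SD of 5 arrays. Macrophage means of wild-type g (9.68 to 10.2) lie above those of knockout g (8.87 to 9.49), both above the sc arrays, while hepatocyte means reach 10.3 on single arrays.

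Values are the deposited log2 signals after RMA, and they are compared for the same gene between groups, not between genes. Most HOX signals were low. Hoxc6 and Hoxc8 lay above the 95th percentile of the negative control probes (7.24) in all 4 groups. Hoxa10, Hoxc10 and Hoxd8 did so in 1 to 3 groups, and the group means of the other 28 members stayed under it. Against a second yardstick, the 95th percentile of 1091 olfactory receptor genes (4.98), 23 members were above it in all groups. Hoxb9, Hoxb13, Hoxc11, Hoxc12, Hoxd1, Hoxd10 and Hoxd11 were above it in no group. Folds below are therefore ratios of array signals and can be smaller than the ratios of RNA.

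The first question was how the HOX genes differ between the depots of wild-type animals. In wild-type g, 7 of the 33 members were lower than in wild-type sc and 0 were higher. The background was 17.8% of all genes called, 9.3% higher and 8.48% lower. Called means an adjusted p under 0.05 in limma with Benjamini-Hochberg adjustment over all genes. Hoxa10, Hoxb8, Hoxc5, Hoxc6, Hoxc9, Hoxc10 and Hoxc11 fell, so 5 of the 7 belong to Hoxc and 0 to Hoxd. Of the 33 differences 29 were below 0, with a median of -0.19 on the log2 scale, beside a median of -0.04 over all genes. Arrays of the depots did not overlap for 6 of the 33 members, a share close to the background of 16.1% of genes. These 6 were the called members other than Hoxc6.

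Hoxc10 had the largest depot difference of the members. It patterns the lower trunk and hindlimb in the embryo and is known to restrain browning of subcutaneous white fat. The wild-type sc arrays read 7.75, 7.79, 7.73, 7.39 and 7.57, and the wild-type g arrays 4.66, 5.14, 4.87, 5.58 and 5.27. Every sc array was thus above every g array, and the g arrays lay in the range of the negative control probes. The difference was -2.54 (SE 0.18, adjusted p = 7.02e-08), a signal 5.83-fold lower in g. Only 7 of the 19505 genes had a lower value in this comparison.

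Hoxa10, which belongs to the same paralog group and likewise acts in the lumbar region and the reproductive tract, showed the same order. Wild-type sc arrays read 7.06, 7.68, 7.26, 7.03 and 7.37, and wild-type g arrays 5.17, 5.53, 4.96, 5.64 and 5.42. The gap between the lowest sc array and the highest g array exceeded the range within either group. The difference was -1.94 (SE 0.18, adjusted p = 1.02e-06), which is 3.83-fold. Hoxd10, the other member of that group, was under both yardsticks everywhere, and its difference of -0.15 (95% interval -0.40 to 0.11) did not pass.

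RefSeq windows of the 250 bases before the start were at hand for 17 members, and are shown for called members of both main patterns. Hoxa10 and Hoxb8 were lower in g in both genotypes, and Hoxc4 was higher on knockout g arrays. Coordinates are those of GRCm38.p6, and each window reads 5′ to 3′ along the gene. Capitals mark matches, on either strand, to the TATA box (TATAAA), the CCAAT box (CCAAT), the GC box (GGGCGG), a CDX and HOX type site (TTTATNG) and a HOX-PBX type site (TGATTNAT).
Hoxa10, chr6:52240855-52241104, minus strand: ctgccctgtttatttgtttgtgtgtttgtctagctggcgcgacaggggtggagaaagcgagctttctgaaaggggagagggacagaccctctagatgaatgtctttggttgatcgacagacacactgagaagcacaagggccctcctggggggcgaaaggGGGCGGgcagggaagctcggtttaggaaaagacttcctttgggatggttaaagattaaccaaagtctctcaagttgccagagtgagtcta
Hoxa10, chr6:52234940-52235189, minus strand: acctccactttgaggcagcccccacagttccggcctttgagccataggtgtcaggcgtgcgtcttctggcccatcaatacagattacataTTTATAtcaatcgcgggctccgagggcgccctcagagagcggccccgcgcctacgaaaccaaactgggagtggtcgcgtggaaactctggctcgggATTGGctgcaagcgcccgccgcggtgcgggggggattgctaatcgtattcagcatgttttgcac
Hoxb8, chr11:96281655-96281904, plus strand: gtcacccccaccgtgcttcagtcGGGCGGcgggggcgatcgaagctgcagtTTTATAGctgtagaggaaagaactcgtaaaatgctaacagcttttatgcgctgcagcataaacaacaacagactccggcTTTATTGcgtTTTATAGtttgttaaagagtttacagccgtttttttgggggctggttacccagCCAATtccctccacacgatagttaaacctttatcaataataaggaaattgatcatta
Hoxc4, chr15:103034145-103034394, plus strand: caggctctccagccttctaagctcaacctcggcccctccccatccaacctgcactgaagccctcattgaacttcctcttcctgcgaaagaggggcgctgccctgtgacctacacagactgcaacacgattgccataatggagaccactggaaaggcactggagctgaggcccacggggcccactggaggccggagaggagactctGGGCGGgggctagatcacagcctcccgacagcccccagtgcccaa
The Hoxa10 windows belong to separate annotated starts, of which only the second holds a TATA-type match. The Hoxb8 window holds 3 TTTATNG matches, and in TTTATAG such a match overlaps a reversed TATAAA.

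Over the 19 windows of the 17 members, TTTATNG occurred in 1 window (Hoxb8) and in 9.8% of the 32851 windows of all genes. TGATTNAT occurred in 2 (Hoxa2 and Hoxd11) against 2.8%. TATAAA occurred in 3 against 12.4%, CCAAT in 12 against 33.8% and GGGCGG in 9 against 32.7%. The median HOX window had 60.4% G and C and 13 CG dinucleotides, and the median of all windows 52.4% and 6. Over the 19 windows the number of CG dinucleotides ran from 2 (Hoxd11) to 35 (Hoxa13), with 7 and 20 in the Hoxa10 windows, 12 in Hoxb8 and 8 in Hoxc4. A match is a run of letters, not a bound site.

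The other Hoxc genes called in wild type differed by less. Hoxc5, a gene of the neck and upper trunk region, read 6.29, 6.72, 6.74, 6.36 and 6.55 in sc and 5.94, 5.92, 5.89, 5.60 and 5.47 in g. The groups did not overlap, and the difference was -0.77 (SE 0.13, adjusted p = 0.00031). Hoxc9, a thoracic member, read 6.72, 6.94, 6.78, 6.86 and 6.44 in sc and 6.07, 6.27, 6.0, 6.34 and 6.26 in g. All sc arrays were again the higher ones, and it differed by -0.56 (SE 0.17, adjusted p = 0.0275). Hoxc6 overlapped at 1 g array (8.69) and differed by -0.45 (adjusted p = 0.0282). Hoxc11 fell by 0.36 (adjusted p = 0.0344), but all its group means were under both yardsticks.

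Outside Hoxa10 and the Hoxc cluster, Hoxb8 was the 1 member called. It is a thoracic gene that is also active in myeloid progenitors. Wild-type sc arrays read 6.25, 6.31, 6.26, 6.18 and 6.41, and g arrays 6.03, 5.96, 5.98, 5.97 and 5.87. The spread within a depot was small (SD 0.08 and 0.06), so the difference of -0.32 (SE 0.08, adjusted p = 0.00563) passed with groups that did not overlap. The remaining 26 members did not pass. Their differences ran from -0.41 for Hoxc8 (95% interval -0.76 to -0.05, adjusted p = 0.109) to 0.21 for Hoxd8 (-0.08 to 0.50, adjusted p = 0.338).

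Macrophage, mesothelial and adipocyte markers also differed between these depots: 12 of 13 macrophage and 7 of 9 mesothelial markers rose in wild-type g, and 14 of 16 mature adipocyte markers fell. With the macrophage mean as a covariate 0 of the 33 were called, with Hoxc10 at -2.27 (adjusted p = 0.186) and Hoxa10 at -0.97 (adjusted p = 0.439). With the adipocyte mean, an alternative chosen after seeing the data, 0 were called as well. The macrophage means of the wild-type depots did not overlap, nor did the adipocyte means, so marker level and depot cannot be told apart here. In bulk RNA, fewer cells of a type and less RNA per cell cannot be told apart. Without the 8 hepatocyte-high arrays 4 were called, namely Hoxa10, Hoxb8, Hoxc5 and Hoxc10. Leaving out any 1 array of these groups kept those 4. Hoxc6 was lost without sc287WT, sc307WT, sc309WT, g307 WT or g309 WT (adjusted p 0.0545 to 0.0923), and Hoxc9 without sc287WT, sc307WT, sc308WT, g286 WT or g307 WT (0.0571 to 0.0745). Hoxc11 was lost without sc307WT, sc308WT, g287 WT, g307 WT or g309 WT (0.0599 to 0.102).

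**Figure D2:**
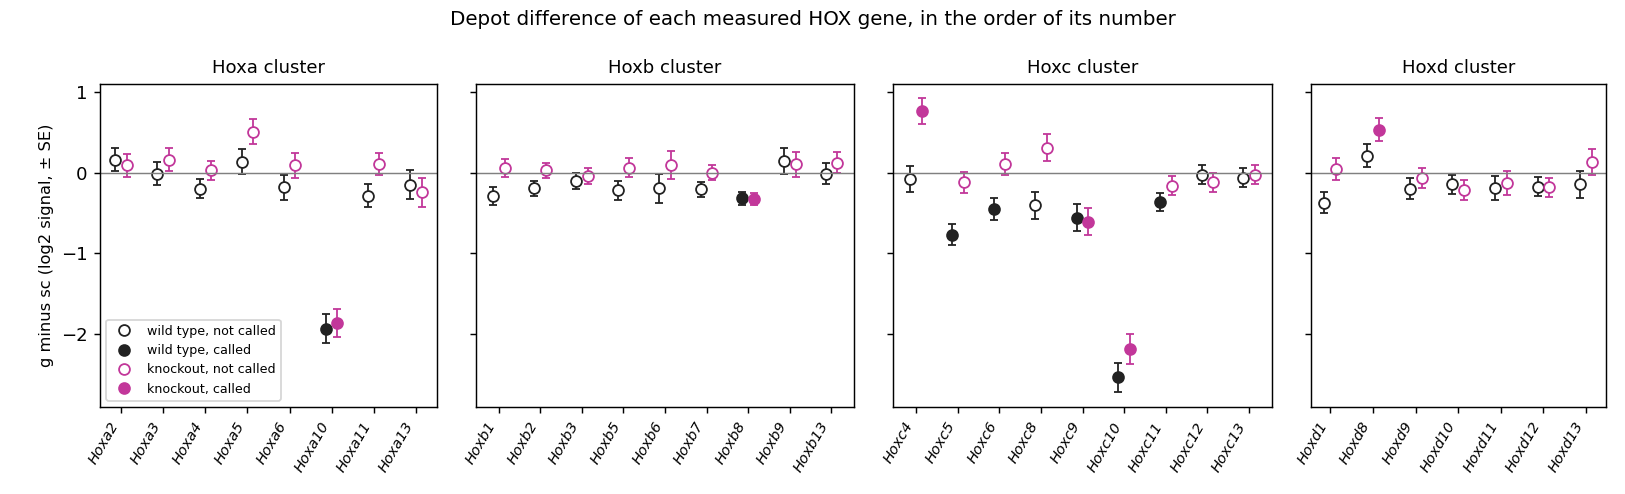
Difference g minus sc on the log2 scale for each measured HOX gene, by cluster and number, in wild-type and knockout arrays, with bars for the SE and filled points for adjusted p under 0.05. Hoxa10 and Hoxc10 lie between -2.54 and -1.87 in both genotypes, and every other member lies between -0.77 and 0.77.

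The second question was whether the depot pattern held on arrays of knockouts, which share no array with the wild-type comparison. On knockout arrays 6 members were called, 4 lower and 2 higher in g, where the background was 4.13% of genes, 1.27% lower and 2.87% higher. Hoxa10, Hoxb8, Hoxc9 and Hoxc10 fell in both genotypes, which is 57.1% of the 7 called in wild type and 66.7% of the 6 called in knockouts. With only the 2 knockout groups in the fit, Hoxa10 and Hoxc10 alone of the 33 were called. Over all genes 609 were called in both, 17.6% and 75.6% of the lists. The median HOX difference was 0.03, beside -0.02 over all genes, and 14 of 33 were below 0. The depots did not overlap for 5 of the 33 members, where the background was 4.26% of genes. These 5 were the called members other than Hoxc9.

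Hoxc10 read 7.46, 8.04, 7.23, 7.71 and 7.02 on knockout sc arrays and 5.45, 5.09, 4.94, 5.57 and 5.47 on knockout g arrays. The difference was -2.19 (SE 0.18, adjusted p = 4.98e-07), a 4.56-fold lower signal. Only 4 genes were lower in this comparison. Hoxa10 read 7.48, 7.69, 6.68, 7.45 and 6.91 in sc and 5.60, 5.30, 5.38, 5.09 and 5.50 in g, a difference of -1.87 (SE 0.18, adjusted p = 2.95e-06). For both genes the depots did not overlap. The differences between the genotypes' depot effects were 0.35 for Hoxc10 (95% interval -0.19 to 0.90) and 0.07 for Hoxa10 (-0.46 to 0.60).

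Hoxb8 differed by -0.33 (SE 0.08, adjusted p = 0.0155) with knockout sc arrays at 6.26, 6.41, 6.24, 6.42 and 6.36 and g arrays at 5.85, 5.9, 6.22, 6.0 and 6.07. Its groups came within 0.02 of each other but did not overlap. Hoxc9 differed by -0.61 (SE 0.17, adjusted p = 0.0489). Its g arrays spread from 5.54 to 6.63 and overlapped with the sc array at 6.20.

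**Figure D3:**
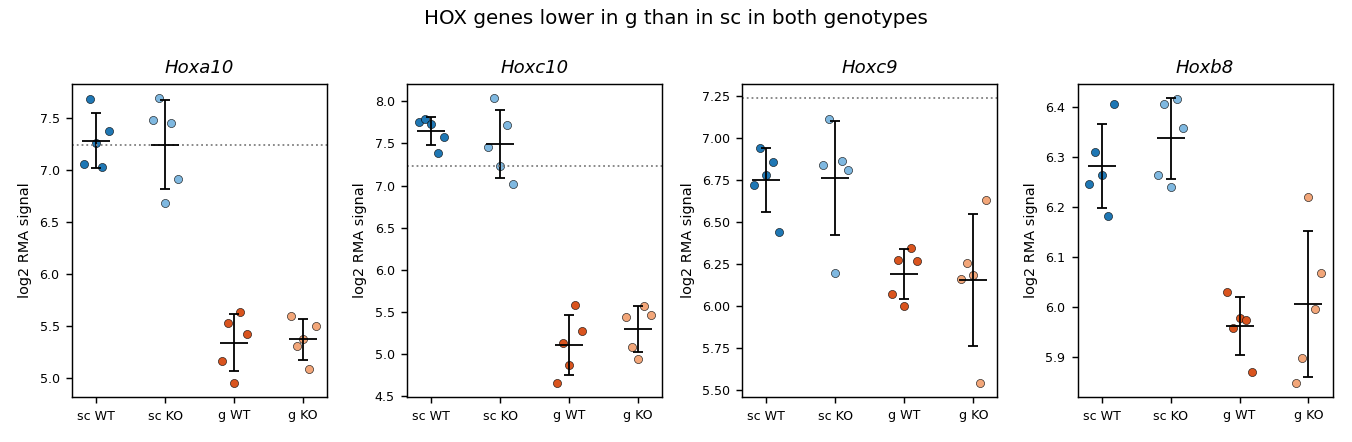
Log2 RMA signal of the 4 HOX genes called lower in g in both genotypes, with 1 point per array, bars for the mean and SD of 5 arrays, and a dotted line at the 95th percentile of negative control probes (7.24) where it is in range. For Hoxa10 and Hoxc10 every sc array (6.68 or more) is above every g array (5.64 or less).

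Higher in knockout g than in knockout sc were Hoxc4 and Hoxd8. Hoxc4, a gene of the neck region, read 6.33, 5.86, 5.41, 6.12 and 5.65 in sc and 6.77, 6.53, 6.97, 6.35 and 6.59 in g. The highest sc array stayed just below the lowest g array, and the difference was 0.77 (SE 0.16, adjusted p = 0.00643). Hoxd8 read 6.93, 7.14, 6.91, 7.12 and 6.31 in sc and 7.18, 7.40, 7.30, 7.54 and 7.66 in g. Its difference was 0.54 (SE 0.14, adjusted p = 0.0329), and without sc320KO, the low sc array, it was 0.39 (adjusted p = 0.084). On knockout arrays 11 of 13 macrophage and 8 of 9 mesothelial markers rose in g. Of 16 mature adipocyte markers 1 fell, and their mean was 11.42 to 11.52 in knockout sc and 11.12 to 11.32 in knockout g.

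Hoxc10 was called in all 28 alternatives of this comparison, with differences from -2.43 to -1.98. Hoxa10 lost the call with the macrophage covariate (-1.25, adjusted p = 0.0964) and without the hepatocyte-high arrays (-1.50, adjusted p = 0.116), which leave 3 knockout sc arrays and 1 knockout g array. Hoxb8 was called in 20 of 27 alternatives, Hoxc4 in 22 of 27, Hoxc9 in 13 of 27 and Hoxd8 in 11 of 28. The fixed replicate block, only the 2 groups compared, and no hepatocyte-high arrays each ended the calls of Hoxb8, Hoxc9 and Hoxd8. Hoxb8 lost the call also without g306 KO (adjusted p = 0.05002) and with the macrophage (0.611), mesothelial (0.114) or adipocyte mean (0.114). The means of these 3 marker lists did not overlap between the knockout depots, so marker level and depot cannot be told apart. Hoxc4 lost the call with the mesothelial mean (0.468) and without the lymphocyte-high arrays (0.54, adjusted p = 0.0692), and kept it with the macrophage mean (1.35, adjusted p = 0.0277). Its call was also lost with only the 2 groups compared, and without the hepatocyte-high or muscle-high arrays. Hoxd8 lost it with each marker covariate tried (adjusted p 0.0667 to 0.837). Hoxc9 lost it in 8 of 10 cases where 1 array was left out, all but sc317KO and g320 KO (adjusted p 0.0712 to 0.13). Hoxd8 lost it in 6 of 10, namely sc300KO, sc317KO, sc320KO, g306 KO, g318 KO and g320 KO (0.0527 to 0.084).

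Averaged over both genotypes, 10 g arrays against 10 sc arrays, 9 members were called where the background was 19.6% of genes, 9.82% higher and 9.81% lower. Hoxa10, Hoxb8, Hoxc5, Hoxc9, Hoxc10 and Hoxc11 fell, and Hoxa5, Hoxc4 and Hoxd8 rose. Hoxc10 differed by -2.37 (adjusted p = 4.57e-10) and Hoxa10 by -1.90 (adjusted p = 5.64e-09). These 2 of the 33 members were also those whose 10 arrays per depot did not overlap, where the background was 1.2% of genes. Macrophage markers (12 of 13) and mesothelial markers (9 of 9) rose in g as well and 14 of 16 mature adipocyte markers fell. With the macrophage mean as a covariate Hoxc10 alone of the 9 was called, and Hoxa10 was at -1.11 (adjusted p = 0.247). The macrophage means of the g and sc arrays did not overlap, so marker level and depot cannot be told apart. Hoxa5, known to promote adipocyte differentiation, rose by 0.32 (adjusted p = 0.0442). It lost the call in 13 of 20 cases where 1 array was left out (adjusted p 0.0511 to 0.0837), and kept it without sc287WT, sc300KO, sc318KO, g300 KO, g308 WT, g309 WT or g318 KO. Hoxc4, at 0.35, lost it in 8 of 20 (without sc287WT, sc308WT, sc317KO, sc320KO, g286 WT, g287 WT, g300 KO or g317 KO, 0.0543 to 0.0644). Hoxc11, at -0.26, lost it in 5 of 20 (without sc307WT, sc308WT, sc317KO, g287 WT or g318 KO, 0.053 to 0.0592). By number, 4 of the 15 members numbered 9 to 13 fell and 0 rose, while of the 18 members numbered 1 to 8, 3 rose and 2 fell.

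The third question was the effect of the knockout. In sc, 0 of 33 members were called, against a background of 0.677% of genes (132 genes), 0.297% higher and 0.379% lower. For 0 members did the groups not overlap, where the background was 2.94% of genes. No member had an unadjusted p under 0.05 in limma, beside 2017 of all 19505 genes, and 0 were called under any alternative tried. The differences ran from -0.27 for Hoxa11 (95% interval -0.56 to 0.03) to 0.25 for Hoxa2 (-0.04 to 0.54). The Hoxc8 difference was 0.22, with an interval of -0.13 to 0.58.

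In g, 6 of 33 members were higher on knockout than on wild-type arrays and 0 were lower, where the background was 11.3% of genes, 5.01% higher and 6.27% lower. Hoxb1, Hoxb7, Hoxc4, Hoxc5, Hoxc6 and Hoxc8 rose. Of all 33 differences 29 were above 0, with a median of 0.14, beside 0.02 over all genes. The 6 lay among the 18 members numbered 1 to 8, where 17 differences were above 0 with a median of 0.32. Of the 15 numbered 9 to 13, 0 were called (median 0.05). Of the 7 members under the olfactory receptor yardstick in every group, all but Hoxd1 are numbered 9 to 13. Number and signal level can therefore not be told apart here. Knockout and wild-type g arrays did not overlap for 4 of the 33 members, namely Hoxc4, Hoxc5, Hoxc6 and Hoxc8. That share is close to the background of 10.4% of genes.

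Hoxc8, a thoracic gene that is known to hold back the brown fat programme and is a target of the miR-196 family, had the largest difference. Wild-type g arrays read 8.59, 8.92, 8.35, 8.98 and 8.05, and knockout g arrays 9.39, 9.58, 9.62, 9.64 and 9.38. The knockout arrays lay close together (SD 0.13) and above all wild-type ones. The difference was 0.94 (SE 0.17, adjusted p = 0.00122), a 1.92-fold higher signal. Knockout sc arrays, at 9.53, 9.51, 9.0, 9.25 and 8.75, and wild-type sc arrays, at 8.62, 9.12, 9.02, 9.12 and 9.06, overlapped.

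Hoxc6 read 8.47, 8.69, 8.34, 8.47 and 7.97 on wild-type g arrays and 9.22, 9.40, 8.91, 8.86 and 9.07 on knockout g arrays. The difference was 0.70 (SE 0.14, adjusted p = 0.00228), and the knockout g mean of 9.09 ± 0.22 was close to the sc means of 8.84 ± 0.17 and 8.98 ± 0.24 (SD, n = 5 each). For Hoxc5 the wild-type g arrays were again the lowest group (5.76 ± 0.22), and knockout g arrays at 6.39, 6.56, 6.03, 6.10 and 6.54 (6.33 ± 0.25) overlapped with both sc groups. The knockout difference was 0.56 (SE 0.13, adjusted p = 0.00756).

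For Hoxc4, wild-type g arrays, at 6.21, 6.33, 5.74, 5.92 and 5.75, overlapped with wild-type sc arrays, at 6.09, 5.99, 6.11, 5.93 and 6.20, and knockout g was the highest group. The knockout difference in g was 0.65 (SE 0.16, adjusted p = 0.00978). The Hoxc4 window printed earlier holds a GGGCGG match and no match to the other motifs searched. Hoxc4, Hoxc5 and Hoxc6 are neighbours whose transcripts can overlap, and probe positions were not used here, so their signals may not be separate measurements.

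In the Hoxb cluster, Hoxb1, which gives a hindbrain segment its identity, rose by 0.44 (SE 0.11, adjusted p = 0.016). Wild-type g arrays read 5.33, 5.51, 5.07, 5.61 and 5.04 and knockout g arrays 5.58, 5.83, 5.72, 5.76 and 5.85, so the groups overlapped at 1 array each. Hoxb7, a thoracic gene, rose by 0.31 (SE 0.09, adjusted p = 0.0394), with 6.52, 6.93, 6.72, 6.76 and 6.72 against 6.98, 6.92, 7.27, 6.93 and 7.09. Both Hoxb genes had means under the negative control percentile in every group, as did Hoxc4 and Hoxc5. Hoxb1 lost the call without g307 WT or g309 WT (adjusted p 0.0555 to 0.0576). Hoxb7 lost it without g286 WT, g307 WT, g308 WT, g309 WT, g300 KO, g317 KO or g320 KO (0.0503 to 0.119).

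**Figure D4:**
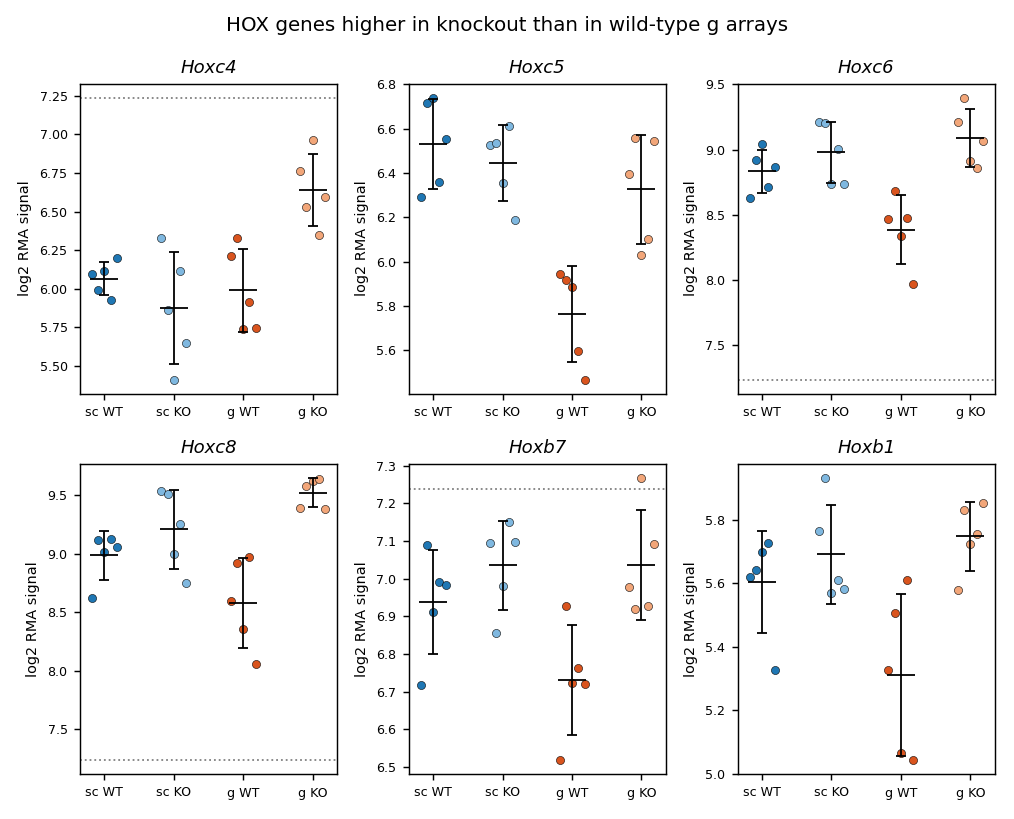
Log2 RMA signal of the 6 HOX genes called higher on knockout than on wild-type g arrays, with 1 point per array, bars for the mean and SD of 5 arrays, and a dotted line at the 95th percentile of negative control probes (7.24) where it is in range. In Hoxc4, Hoxc5, Hoxc6 and Hoxc8 every knockout g array is above every wild-type g array.

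The posterior genes with the large depot difference did not pass here. Hoxa10 differed by 0.03 in g (95% interval -0.34 to 0.41) and Hoxc10 by 0.20 (-0.19 to 0.58). Both were under the negative control percentile in both g groups, so a change there may not be detectable with these probes. Another 5 members numbered 1 to 8 had an unadjusted p under 0.05 and no call, namely Hoxa4, Hoxa5, Hoxa6, Hoxb2 and Hoxd1, with differences between 0.24 and 0.36. With the called ones, 11 of 33 had an unadjusted p under 0.05 in limma, beside 4702 of all 19505 genes. Knockout and wild-type g arrays also differed in other cell types' markers: 11 of 13 macrophage markers fell and 1 rose, 10 of 16 mature adipocyte markers rose, and 6 of 12 progenitor and fibroblast markers fell. The macrophage means of the groups did not overlap, nor did the adipocyte means (10.59 to 10.97 in wild-type g and 11.12 to 11.32 in knockout g), so marker level and genotype cannot be told apart in g.

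With the macrophage mean as a covariate 0 of 33 were called, and Hoxc8 stood at 0.62 (adjusted p = 0.567) and Hoxc6 at 0.50 (adjusted p = 0.576). With the adipocyte mean Hoxc8 stood at 0.15 (adjusted p = 0.893) and Hoxc6 at -0.02 (adjusted p = 0.98). With the hepatocyte mean Hoxc5, Hoxc6 and Hoxc8 were called and Hoxc4 was not (0.50, adjusted p = 0.0676). Without the hepatocyte-high arrays, which leave 3 wild-type and 1 knockout g array, 0 were called and Hoxc8 was at 0.95 (adjusted p = 0.279). Leaving out any 1 array of these groups kept the calls of Hoxc4, Hoxc5, Hoxc6 and Hoxc8.

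**Figure D5:**
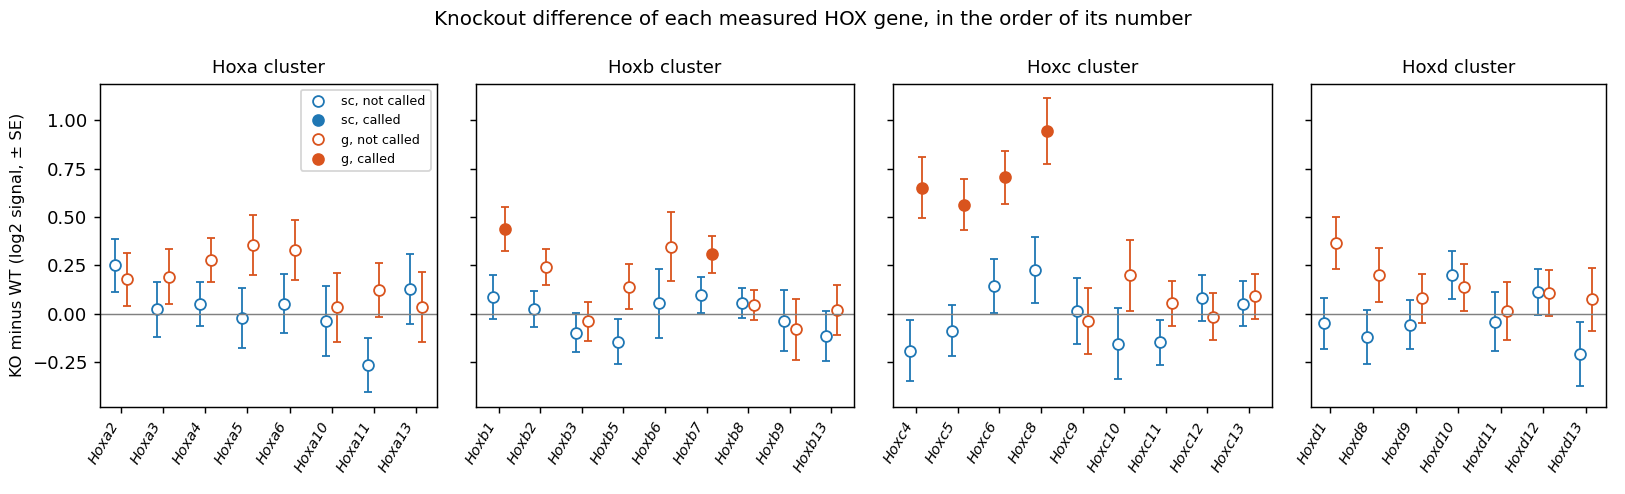
Difference knockout minus wild type on the log2 scale for each measured HOX gene, by cluster and number, in sc and g, with bars for the SE and filled points for adjusted p under 0.05. The 6 filled points are g values between 0.31 and 0.94, and sc values stay between -0.27 and 0.25.

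Whether the knockout effect differed between depots was tested as the difference of the effects in g and in sc. For 0 of 33 members did it pass, where the background was 0.0769% of genes (15 genes), 0.041% higher and 0.0359% lower. At an unadjusted p under 0.05 in limma there were 6 of 33, beside 2537 of all 19505 genes. Of the 33 differences 25 were above 0, beside 10147 over all genes. The 4 with the smallest p were Hoxc4 at 0.84 (SE 0.22, adjusted p = 0.149), Hoxc5 at 0.65 (SE 0.19, adjusted p = 0.165), Hoxc8 at 0.72 (SE 0.24, adjusted p = 0.222) and Hoxc6 at 0.56 (SE 0.20, adjusted p = 0.243). A depot dependence of the knockout effect was thus not established for any member, including those called in g and not in sc.

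Among the HOX cofactors, 4 of 8 measured genes were called in wild type, all higher in g, where the background was 9.3% of genes higher and 8.48% lower. Meis1 rose by 0.90 in wild type (SE 0.14) and by 0.68 in knockouts, and Pbx2, Meis2 and Meis3 by 0.32, 0.37 and 0.37 in wild type. In the retinoic acid pathway 4 of 15 were called in wild type, beside 17.8% of all genes. The enzymes Aldh1a2 and Aldh1a3, which make retinoic acid, rose by 1.78 and 1.23, and the receptors Rxrg and Rarb fell by 0.89 and 0.28. Aldh1a2 and Aldh1a3 were also higher in knockout g, by 1.77 and 0.86, in the depot whose mesothelial markers were higher. Of the 15, Rxra, Rxrg and Aldh1a1 were higher on knockout than on wild-type g arrays, by 0.51, 0.66 and 0.64. The background was 11.3% of genes called, 5.01% higher. Macrophage and adipocyte marker means did not overlap between these groups, so marker level and genotype cannot be told apart. With the knockout in sc 0 of 15 were called (background 0.677%). For 0 of 15 did the difference between the knockout effects in g and in sc pass (background 0.0769%).

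Of 15 Polycomb subunits 0 were called between depots in either genotype, and 0 with the knockout in either depot. The background in this paragraph was 17.8% of genes between wild-type depots and 4.13% between knockout depots. With the knockout it was 11.3% in g and 0.677% in sc. Averaged over both genotypes 1 of 15 was called (background 19.6%), Cbx2, a reader of the Polycomb mark, which fell in g by 0.23. Of 8 trithorax subunits and H3K27 demethylases 1 was called in wild type, the demethylase Kdm6b, which fell in g by 0.42 (adjusted p = 0.0188). None of the 4 genes Cdx1, Cdx2, Cdx4 and Gdf11, which set posterior HOX expression in the embryo, was called in the depot comparison of either genotype or with the knockout in either depot. Their mean was 4.64 to 4.86 in the groups, beside a median negative control probe of 4.45 to 4.84, so a change may not be detectable with these probes.

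Non-HOX genes next to or inside the clusters were described beside their HOX neighbours. Of 27 measured, 4 rose and 2 fell in wild-type g, with differences between -0.54 and 0.84. The background there was 9.3% of genes higher and 8.48% lower. In knockouts 1 rose and 1 fell, Atp5g2 beside Hoxc by 0.30 and Atp5g3 beside Hoxd by 0.33. The background there was 2.87% of genes higher and 1.27% lower. With the knockout in g 1 of the 27 rose and 3 fell, where the background was 5.01% of genes higher and 6.27% lower. In sc 0 were called (background 0.677%). The 3 genes beyond each end of Hoxc differed between depots in wild type by at most 0.35 in size. Differences of the 9 Hoxc members ran from -2.54 for Hoxc10 to -0.03 for Hoxc12, with a median of -0.41.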

How the data were processed

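Labelled total RNA of 20 samples was measured on expression arrays. The authors deposited 1 value per probe and array on the log2 scale, and the submitters' processing notes name RMA and limma. Not given in the sources used here are their versions, the array build, and whether RMA was run over all arrays at once. The table holds 28846 probes, of which 6640 are control probes. Another 19572 carry 1 gene symbol, and 55 genes with several probes (0 of them HOX genes) were represented by the probe with the highest mean, which left 19505 genes. Arrays give no counts, so their number limits the precision.

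Groups were taken from the labels. In R 4.3.3 with limma 3.58.1, a mean was fitted for each of the 4 groups over all 20 arrays (16 residual degrees of freedom, no covariate) for 6 comparisons. The p-values are moderated and two-sided, adjusted by Benjamini-Hochberg over all genes. SE is the moderated SE and intervals are at 95%. The fit was tested on simulated data. Named were all HOX genes, up to 4 called members of each other list, and Olfm2, and values of called genes in further comparisons were added. The members and the gene lists were chosen with earlier results of these data known. A level was called low where a group mean was under the 95th percentile of 5222 negative control probes. Promoter windows are RefSeq's for GRCm38.p6. Alternatives changed the prior, probe choice, scaling, low-signal filter, samples, weights, marker covariates and replicate block, and left out arrays.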

Additional observations from a re-analysis of the deposited data

Results flagged for a closer look

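In groups of 5 arrays, 7 of 132 checks of a HOX gene in a group found 1 array far from the others by Dixon's criterion, a share that chance alone gives (about 1 in 20). Among genes called in a comparison, Hoxc8 read 8.62 on sc286WT against 9.02 to 9.12 on the other wild-type sc arrays. Hoxd8 read 6.31 on sc320KO against 6.91 to 7.14 on the other knockout sc arrays. Hoxb1 read 5.32 on sc309WT against 5.62 to 5.73. Among genes not called, Hoxb2 read 6.89 on g306 KO against 7.13 to 7.17, and Hoxd13 read 5.53 on g317 KO against 4.79 to 4.91. Hoxb13 read 3.79 on sc320KO against 3.45 to 3.54, and Hoxd11 read 3.90 on sc300KO against 4.05 to 4.12. Of the mean marker levels, the lymphocyte mean of 8.24 on sc286WT stood apart from 5.20 to 5.58 on the other wild-type sc arrays, and the skeletal muscle mean of that array was 10.9. Without the 3 lymphocyte-high arrays, an alternative chosen after seeing the data, Hoxc8 was called lower in wild-type g (-0.50, adjusted p = 0.0227), and Hoxd8 was not called in the knockout depot comparison (0.35, adjusted p = 0.146).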

How the results depend on the processing

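For the 28 called HOX results, 648 of 839 alternatives kept direction and call, 185 kept the direction without the call, and 6 had the opposite sign. For the count of 7 in wild-type g against sc, array weights gave 11, the 3 covariates (hepatocyte, lymphocyte, muscle) 3, the macrophage covariate 0, the mesothelial covariate 3, no hepatocyte-high arrays 4, the adipocyte covariate 0, only genes at or above the negative controls 3 of 5 tested, and single arrays left out 4 to 9 (lowest without sc307WT or g307 WT). For the 6 in knockouts the order was the fixed replicate block 3, only the 2 groups compared 2, macrophage covariate 2, mesothelial covariate 2, no hepatocyte-high arrays 1, negative control filter 3, and single arrays left out 3 to 6 (lowest without g306 KO). For the 9 over both genotypes it was macrophage 1, mesothelial 3, no hepatocyte-high arrays 3, adipocyte 2, negative control filter 3. For the 6 of knockout against wild type in g it was hepatocyte 3, macrophage 0, mesothelial 3, no hepatocyte-high arrays 0, adipocyte 0, negative control filter 2. The cause of these changes was not tested, except that the negative control filter tested 5 members. The counts of 0 stayed 0.

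Opposite signs, none of them called, were Hoxc9 with the macrophage covariate (0.53 in wild type, 0.0899 in knockouts, 0.31 over both), Hoxa5 over both genotypes with the mesothelial covariate (-0.11), and Hoxc6 with the adipocyte covariate (0.50 for wild-type depots and -0.0248 for knockout against wild type in g). The title numbers occur once per depot but were not shown to pair the samples: residuals of same-numbered arrays correlated between -0.46 and 0.14, and 3 of 10 arrays matched their own number best. As a random replicate block (consensus correlation 0.09) the numbers gave counts of 8, 6, 9, 0, 6 and 0 in the order of the report, and as a fixed replicate block 7, 3 and 7 for the depot comparisons. Adipocyte covariate, negative control filter, and leaving out lymphocyte-high or muscle-high arrays were chosen after seeing the data. Signals near the negative controls limit 28 of 33 members.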
